A study of Mus musculus with 10 samples.

Results

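Interferon beta, the 4 chains of the type I and type II interferon receptors, the receptor-bound kinases Jak1, Jak2 and Tyk2, and the kinases TBK1 and IKKε that act before interferon beta is made were followed in RAW264.7 cells, a mouse macrophage line. The 10 genes (Ifnb1, Ifnar1, Ifnar2, Ifngr1, Ifngr2, Jak1, Jak2, Tyk2, Tbk1 and Ikbke) were chosen by symbol among the 43432 genes of the count table, and all 10 were among the 14172 genes tested. The comparison covered 5 conditions, each represented by 2 libraries. Resting cells received the solvent (0.5% DMSO), and solvent-treated cells with lipopolysaccharide (LPS, a bacterial cell wall product) at 1 µg/mL are called DMSO + LPS. The other 3 conditions received the cyanobacterial fatty acid **1**, a hexadec-7-enoic acid with its double bond in the E form and a keto group at carbon 9, at 32, 10 or 3.2 µM, each with LPS at 1 µg/mL. LPS followed compound or solvent by 1 h, and the cells were lysed for RNA at 12 h. The labels number the 2 libraries of a condition as biological replicates without saying how the cultures were separated, so the p-values measure the spread between these libraries, which may be technical.

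In macrophages, LPS is sensed by Toll-like receptor 4. One branch of its signaling runs through the adaptor TRIF to TBK1 and IKKε, which phosphorylate IRF3, and IRF3 together with NF-κB turns on Ifnb1. Secreted interferon beta then binds the receptor made of IFNAR1, which carries TYK2, and IFNAR2, which carries JAK1. These kinases phosphorylate STAT2, which works with IRF9 in the factor ISGF3 to switch on antiviral genes. The receptor for interferon gamma is made of the ligand-binding chain IFNGR1, which carries JAK1, and the signaling chain IFNGR2, which carries JAK2.

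Ifnb1 (ENSMUSG00000048806) lies at chr4:88522025-88522774 on the minus strand of GRCm38 and has a single exon of 750 nt. Ikbke (ENSMUSG00000042349) lies at chr1:131254343-131279606 on the minus strand, with exons of 9018 nt in all. Ifnar2 (chr16:91372783-91405589), Ifnar1 (chr16:91485238-91507441) and Ifngr2 (chr16:91547072-91565623) are neighbors on the plus strand of chromosome 16. Ifngr1 (chr10:19591949-19610229) and Tbk1 (chr10:121546455-121586787) are on chromosome 10. Jak1 is at chr4:101152367-101265282, Jak2 at chr19:29251828-29313080 and Tyk2 at chr9:21104068-21131243.

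The promoter stretches of the 2 genes that fell at 32 µM, and of Ifngr2, which rose with LPS and was not called at any dose, are shown because the factors named above act on such sequences. Each holds 90 bases, from 150 to 61 bases before the RefSeq start site (GRCm38.p6), written 5′ to 3′ on the gene's own strand. Capitals mark matches to AANNGAAA, the repeated unit of the site bound by interferon regulatory factors, or to GGGANNTTC, a form of the κB site, on either strand.
Ifnb1, chr4:88522855-88522944, minus strand: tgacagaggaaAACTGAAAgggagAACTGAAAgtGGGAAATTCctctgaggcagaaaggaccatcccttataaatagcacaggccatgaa
Ikbke, chr1:131279624-131279713, minus strand: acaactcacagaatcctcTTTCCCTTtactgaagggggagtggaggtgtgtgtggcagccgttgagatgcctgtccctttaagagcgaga
Ifngr2, chr16:91546909-91546998, plus strand: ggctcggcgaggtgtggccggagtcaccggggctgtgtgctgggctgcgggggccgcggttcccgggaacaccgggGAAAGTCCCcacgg

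In the Ifnb1 stretch, 2 matches to AANNGAAA and 1 to GGGANNTTC lay within the first bases shown. The Ikbke stretch held 1 match to AANNGAAA and the Ifngr2 stretch 1 match to GGGANNTTC, both on the reverse strand. In windows of 300 bases around all 32851 RefSeq start sites, AANNGAAA was found in 23.9% and GGGANNTTC in 3.94%. AANNGAAA was added after the sequences had been seen, because the longer form GAAANNGAA, found in 8.56% of windows, was in none of the 10 genes' windows. TGACNNNGC, a form of the antioxidant response element bound by Nrf2, was found in 12.4% of windows and in none of those of the 10 genes. Such matches describe letters only.

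Library totals lay between 45966803 and 58976377 counts. Values are CPM (a gene's counts relative to its library's total, scaled by edgeR's TMM factors), which are shares of a library, so that fewer cells with a transcript and less transcript per cell cannot be told apart. The 8 macrophage markers (among them Csf1r, Cd68 and Adgre1) were detected in all libraries, with a summed level of 9567 to 9658 CPM in DMSO + LPS and 7284 to 7665 CPM at 32 µM, and 4 of the 8 were called lower at 32 µM and none higher (log2 changes from -1.70 for Fcgr1 to 0.40 for Csf1r, median -0.49). Their part in the results given here was not tested. T cell markers summed to at most 0.0699 CPM and B cell markers to at most 0.465 CPM in any library. The libraries that stood apart by markers or by the share of Gm42418 were 3. Replicate 1 at 10 µM and replicate 1 at 3.2 µM held transcripts of epithelial cells (Epcam, Krt18, Krt8 and Cdh1, summed at 38.2 and 5.78 CPM), against at most 0.0850 CPM elsewhere and 0 counts of all 4 in DMSO + LPS and at 32 µM. Fibroblast markers were also highest there (6.02 and 1.19 CPM). In replicate 2 at 32 µM, Gm42418, which overlaps ribosomal RNA, took 2.46% of the counts, against 0.0419% to 0.207% in the other libraries. None of the calls of the 10 genes at 32, 10 or 3.2 µM against DMSO + LPS changed without any of these libraries, and values without them stand beside several results.

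A gene was called where edgeR's quasi-likelihood test gave a Benjamini-Hochberg adjusted p, over all genes tested, below 0.05 and the change was at least 1.5-fold. By this rule LPS raised 5 of the 10 genes and lowered 1, where 28.2% of all genes tested were called. By adjusted p alone 9 of the 10 changed (8 to 10 over the 20 alternatives), against 50.9% of all genes. At 32 µM, 2 of the 10 were lower than in DMSO + LPS, where 4.18% of all genes were called, and the same 2 passed by adjusted p alone, against 9.78%. By adjusted p alone 1 to 8 of the 10 passed under the 20 alternatives, with 8 only with the short-transcript score in the fit and at most 3 otherwise. The corresponding range at 10 µM was 0 to 4. That score is the median relative level of genes under 1000 nt in a library. It ran from -0.192 in replicate 2 of DMSO to 0.135 in replicate 1 at 10 µM (log2). At 32 µM it was 0.0727 and -0.107. At 10 µM none was called, against 0.861% of all genes, while 3 had an unadjusted p below 0.05 (Ifnb1, Tyk2 and Ikbke), against 12.1% of all genes. At 3.2 µM none was called, against 0% of all genes, and none had an unadjusted p below 0.05, against 4.23% of all genes. DESeq2, as a second tool, called 0 of the 10 at 10 µM and 0 at 3.2 µM. All of these dose comparisons share the DMSO + LPS libraries.

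**Figure D1:**
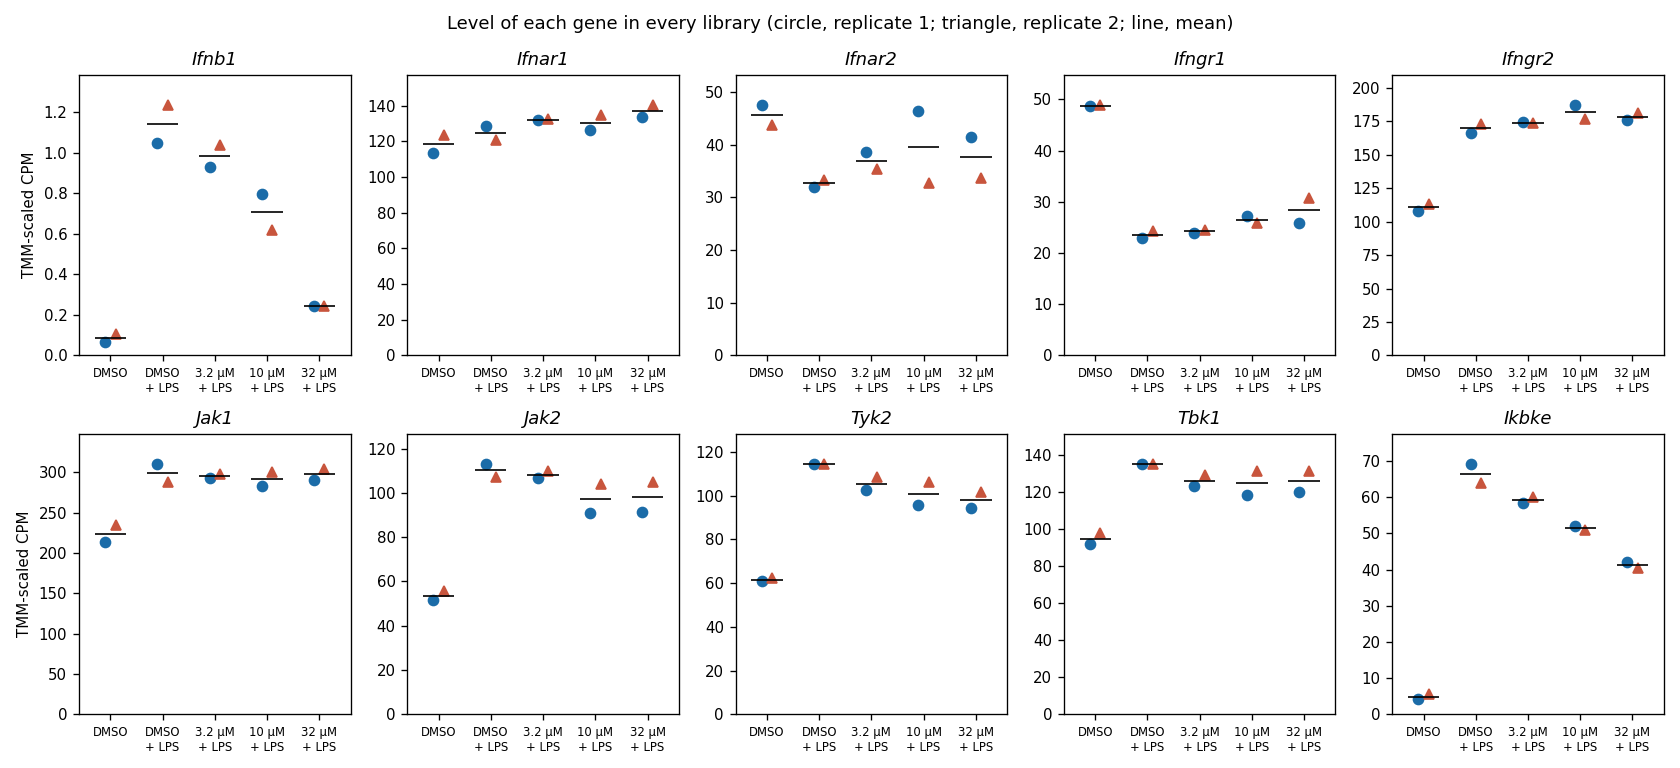
TMM-scaled CPM (y axis, linear from 0) of each of the 10 genes in every library of the 5 conditions (x axis), with circles for replicate 1, triangles for replicate 2 and lines for the mean. Ifnb1 and Ikbke stand at their lowest in DMSO and their highest in DMSO + LPS, with the 32 µM libraries between, while none of the other 8 genes was called at any dose of **1**.

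Ifnb1, the only interferon gene with more than 2 counts in a library, rose with LPS and was lower at the highest dose of **1**. It was counted 4 and 6 times in the DMSO libraries and 60 and 58 times in those of DMSO + LPS. The lowest dose of **1** gave 43 and 52 counts, the middle dose 37 and 28, and the highest 12 and 11. As levels these are 0.0680 and 0.106 CPM in DMSO, 1.05 and 1.24 CPM in DMSO + LPS, 0.928 and 1.04 CPM with 3.2 µM, 0.795 and 0.620 CPM with 10 µM, and 0.245 and 0.243 CPM with 32 µM. No 2 conditions overlapped, and each higher dose stood below the one before it. The gap between DMSO + LPS (1.05 CPM in its lower library) and 3.2 µM (1.04 CPM in its higher one) was less than their counting errors. Separation of 2 against 2 libraries says little by itself. At 3.2 µM only 3 of the 10 genes overlapped DMSO + LPS, while none was called. The counting error of a single library was 50% at 4 counts and 12.9% at 60 counts, so the low end is known only roughly.

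LPS raised Ifnb1 by 3.68 ± 0.33 on the log2 scale (SE, n = 2 libraries a condition, adjusted p = 3.71e-05 in edgeR), which is 12.8-fold. With 4 and 6 counts in DMSO, it passed the minimum count of 10 only through libraries with LPS. At 32 µM it was lower than in DMSO + LPS by -2.21 ± 0.30 (log2, SE), with a 95% confidence interval of -2.90 to -1.52, a 4.63-fold difference (adjusted p = 0.00241 in edgeR). The call was made under all 20 alternative settings, where the log2 change ran from -2.33 to -2.09 and the adjusted p of edgeR and DESeq2 from 6.02e-07 to 0.0268. At 10 µM the change was -0.69 ± 0.27 (adjusted p = 0.358, edgeR), with an interval of -1.31 to -0.06, and without replicate 1 at 10 µM it was -0.88 (adjusted p = 0.344, edgeR).

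At 3.2 µM the change was -0.21 ± 0.27 (adjusted p = 0.999, edgeR), with an interval of -0.83 to 0.40, and without replicate 1 at 3.2 µM it was -0.13. The level at 32 µM remained above that of resting cells by 1.47 ± 0.36 (log2, SE), a 2.77-fold difference (adjusted p = 0.0105 in edgeR), but 4 of 20 alternatives, among them DESeq2 and leaving out replicate 1 of DMSO (1.19), did not call it. Between 32 and 10 µM the direct test, where 1.32% of all genes were called, gave -1.52 ± 0.30 for Ifnb1 (adjusted p = 0.0413 in edgeR). That call was lost in 16 of 20 alternatives, with adjusted p of edgeR and DESeq2 from 0.0109 to 0.957 and log2 changes from -1.69 to -1.33. Without replicate 1 at 10 µM, the library with epithelial transcripts, it was -1.33 (adjusted p = 0.162 in edgeR).

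The other interferon ligands were next to absent. Of 20 genes on a list of alpha, kappa, epsilon, zeta, lambda and gamma interferons, 16 had 0 counts in every library, and the highest count of any in a library was 2, under the 3 counts that a reading of 0 allows. Those seen at all were Ifna2, Ifnab, Ifnk and Ifng. None could be tested.

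Ikbke, which encodes the inducible kinase IKKε, also rose with LPS and was lower at the highest dose, by a smaller fold than Ifnb1. Its levels were 4.17 and 5.57 CPM in DMSO and 69.3 and 63.8 CPM in DMSO + LPS. In the order of rising dose they were 58.5 and 60.1 CPM, 52.0 and 51.0 CPM, and 42.2 and 40.3 CPM. No 2 conditions overlapped, and each higher dose gave a lower level, with the limit of 2 libraries a condition given for Ifnb1. The counting error was 6.39% at most, against 50% for Ifnb1.

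LPS raised Ikbke by 3.77 ± 0.12 (log2, SE, adjusted p = 1.13e-07 in edgeR), which is 13.7-fold. At 32 µM it was lower by -0.69 ± 0.11 (log2, SE, adjusted p = 0.00489 in edgeR), with an interval of -0.94 to -0.44, a 1.61-fold difference. Without replicate 1 of DMSO + LPS the change was -0.63, still beyond 1.5-fold, but with 1 library left in that condition the call was lost. It was made in 19 of 20 alternatives (adjusted p from 9.53e-12 to 0.0562 in edgeR and DESeq2). The change was -0.37 ± 0.11 at 10 µM (adjusted p = 0.16, edgeR) and -0.17 ± 0.11 at 3.2 µM (adjusted p = 0.999, edgeR). Without replicate 1 of the dose these were -0.39 and -0.15. At 10 µM the adjusted p passed in 7 of 20 alternatives, DESeq2 among them (lowest 0.00292), but the change did not reach 1.5-fold. At 32 µM Ikbke still stood 8.48-fold above resting cells (adjusted p = 3.87e-07 in edgeR).

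Tbk1, which encodes the constitutively made partner of IKKε, rose with LPS by less than 1.5-fold. It stood at 91.7 and 97.9 CPM in DMSO and at 135 and 135 CPM in DMSO + LPS, a log2 change of 0.51 ± 0.07 that passed by adjusted p (3.86e-04, edgeR) but not the 1.5-fold limit, which it passed with the short-transcript score in the fit (0.60). At 32 µM its libraries were at 120 and 131 CPM, both below those of DMSO + LPS, and the log2 change was -0.10 ± 0.07 (adjusted p = 0.452, edgeR). Per kilobase of exon, Ikbke was 0.0197 and 0.0246 of the Tbk1 level in DMSO, 0.222 and 0.205 in DMSO + LPS, and 0.153 and 0.133 at 32 µM. Tbk1 thus remained the more abundant of the 2 transcripts in every library.

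**Figure D2:**
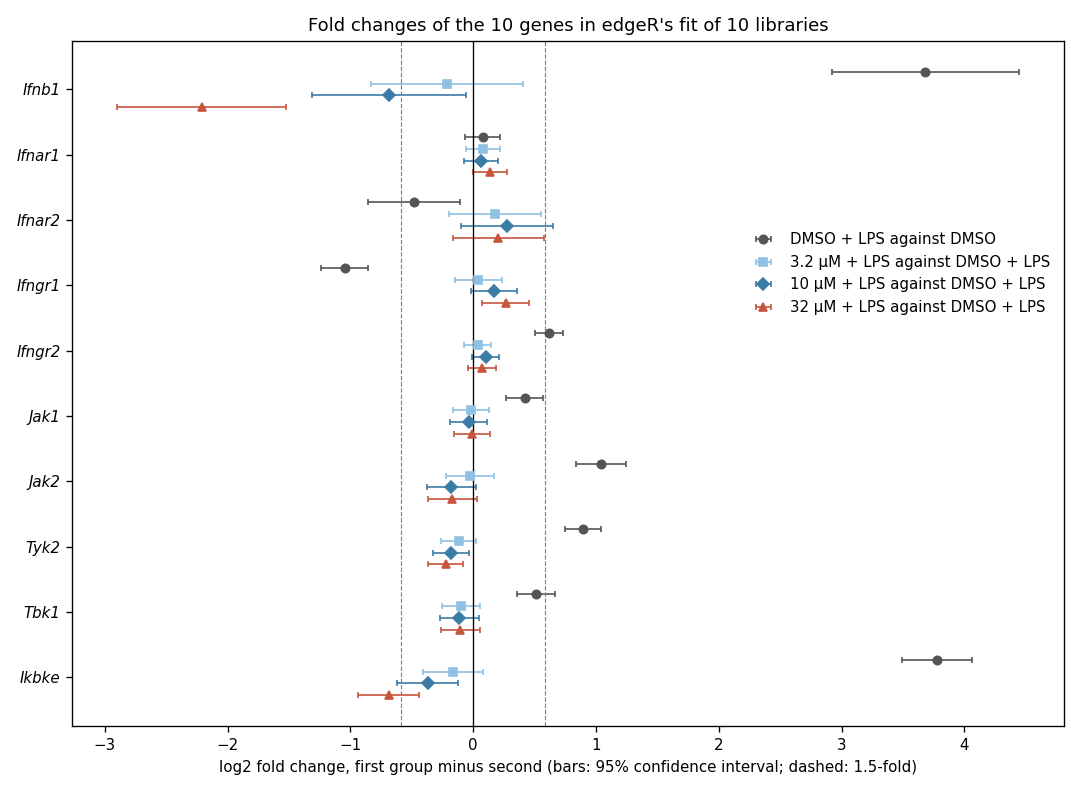
Log2 fold changes (x axis) of the 10 genes (y axis) for LPS against resting cells and for each dose of **1** against DMSO + LPS, with bars for the 95% confidence interval and dashed lines at 1.5-fold. At 32 µM the points of Ifnb1 (-2.21) and Ikbke (-0.69) lie beyond the left dashed line, and the other 8 lie between -0.23 and 0.26.

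The 2 chains of the interferon gamma receptor moved apart with LPS. Ifngr1, the ligand-binding chain, fell from 48.6 and 48.9 CPM in DMSO to 22.9 and 24.3 CPM in DMSO + LPS, a log2 change of -1.05 ± 0.08 (adjusted p = 1.66e-05 in edgeR), or 2.07-fold. Ifngr2, the signaling chain, rose from 108 and 114 CPM to 167 and 173 CPM, a log2 change of 0.62 ± 0.05 (adjusted p = 1.86e-05 in edgeR), or 1.53-fold. Neither gene's libraries overlapped between the conditions. The call of Ifngr2 sits just past the 1.5-fold limit. It was lost without replicate 1 of DMSO (0.58) and with scaling by library size alone (0.41), a scaling that moved the median of all genes by -0.21.

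Per kilobase of exon, Ifngr2 was 1.68 and 1.75 times the level of Ifngr1 in DMSO and 5.50 and 5.39 times in DMSO + LPS. At 32 µM the ratio was 5.13 and 4.46. Ifngr1 stood at 25.9 and 30.7 CPM at 32 µM, above both DMSO + LPS libraries, with a log2 change of 0.26 ± 0.08 and an interval of 0.07 to 0.45 (adjusted p = 0.0954, edgeR), which was not called. The higher of its values came from replicate 2, the library with the large share of Gm42418, and without that library the change was 0.14. Over the 20 alternatives the change ran from 0.14 to 0.38. The adjusted p of Ifngr1 passed in 2 of them, the short-transcript score in the fit among these, but the change did not reach 1.5-fold. Ifngr2 was at 176 and 181 CPM at 32 µM (log2 change 0.07 ± 0.05, adjusted p = 0.472, edgeR).

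The type I receptor chains showed no call. Ifnar1, which binds TYK2, was at 114 and 123 CPM in DMSO and 129 and 121 CPM in DMSO + LPS, and these ranges overlapped (log2 change 0.08 ± 0.06, adjusted p = 0.339, edgeR). Scaling by library size alone turned it to -0.13. At 32 µM it was at 134 and 140 CPM, above both DMSO + LPS libraries by 0.14 ± 0.06 on the log2 scale (adjusted p = 0.236, edgeR). Over all 10 libraries the highest level of Ifnar1 was 1.24 times the lowest, the narrowest range of the 10 genes.

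Ifnar2, which binds JAK1 and also gives rise to a soluble form, was at 47.6 and 43.8 CPM in DMSO and 32.0 and 33.3 CPM in DMSO + LPS. The log2 change of -0.48 ± 0.16 passed by adjusted p (0.0356, edgeR) but not the 1.5-fold limit, which it passed with scaling by library size alone (-0.69) and with the short-transcript score in the fit (-0.72). Its adjusted p did not pass in 6 of 20 alternatives, those without either library of DMSO, DMSO + LPS or 3.2 µM (up to 0.149, edgeR). The replicates parted in 2 conditions with **1**, at 41.5 and 33.8 CPM at 32 µM and at 46.3 and 32.8 CPM at 10 µM. The high value at 10 µM belongs to the library with epithelial transcripts. With it the change at 10 µM was 0.28 ± 0.16 (adjusted p = 0.602, edgeR), and without it 0.01.

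Of the receptor-bound kinases, Jak2 and Tyk2 rose with LPS past the 1.5-fold limit and Jak1 did not. Jak2, the kinase of IFNGR2, went from 51.7 and 55.5 CPM to 113 and 107 CPM (log2 change 1.04 ± 0.09, adjusted p = 2.43e-05 in edgeR, 2.06-fold). Tyk2, the kinase of IFNAR1, went from 61.1 and 62.2 CPM to 115 and 115 CPM (0.90 ± 0.06, adjusted p = 8.94e-06 in edgeR, 1.86-fold). Jak1, shared by both receptors, went from 213 and 235 CPM to 311 and 288 CPM (0.42 ± 0.06, adjusted p = 8.79e-04 in edgeR, 1.34-fold). Per kilobase of exon, Jak2 was 0.348 and 0.340 of Jak1 in DMSO and 0.523 and 0.536 of it in DMSO + LPS.

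With **1** at 32 µM none of the 3 kinases was called. Tyk2 had the lowest p of them, at 94.6 and 102 CPM, both below DMSO + LPS (log2 change -0.23 ± 0.06, interval -0.37 to -0.08, adjusted p = 0.0652 in edgeR). Its adjusted p passed in 7 of 20 alternatives, DESeq2 among them, but the change did not reach 1.5-fold. At 10 µM it was at 95.7 and 106 CPM and at 3.2 µM at 103 and 109 CPM, and without replicate 1 at 10 µM the log2 change there was -0.11. Jak2 was at 91.4 and 105 CPM at 32 µM (-0.17 ± 0.09, adjusted p = 0.306 in edgeR, and -0.27 without replicate 2). Jak1 was at 291 and 304 CPM, between the DMSO + LPS libraries (-0.01 ± 0.06, adjusted p = 0.971 in edgeR).

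For the 8 genes other than Ifnb1 and Ikbke, the 95% intervals of the change at 32 µM together spanned -0.37 to 0.58 on the log2 scale. At 10 µM the span was -0.38 to 0.65, and at 3.2 µM -0.26 to 0.55. The median log2 change of the 10 genes at 32 µM was -0.06, against 0.01 over all genes tested.

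**Figure D3:**
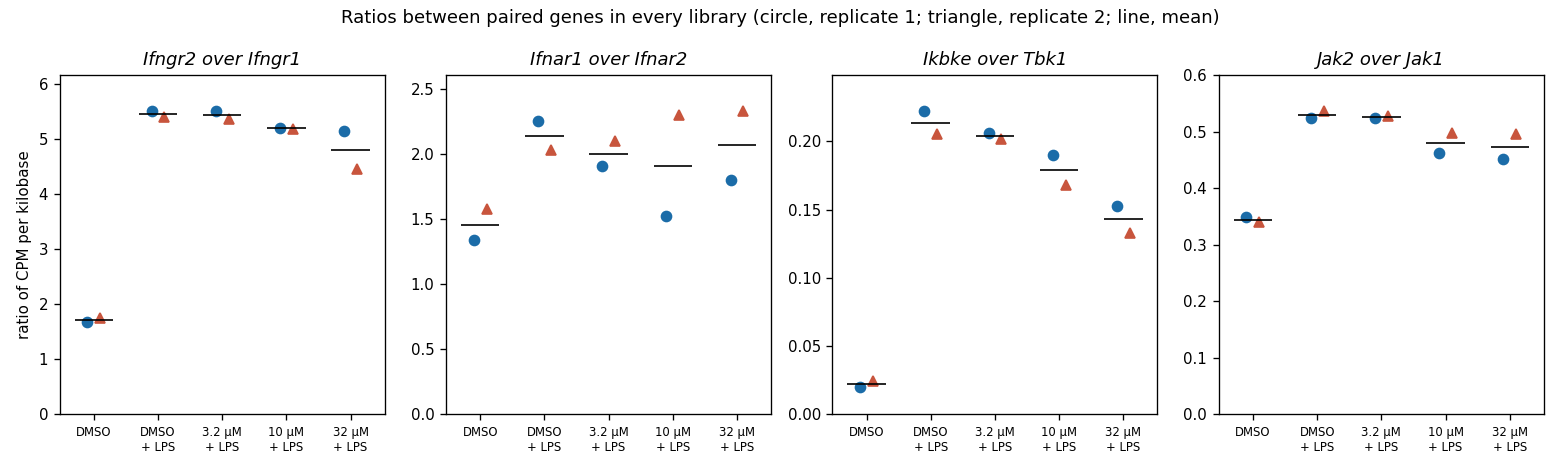
Ratios of CPM per kilobase of exon (y axis, linear from 0) between gene pairs in every library of the 5 conditions (x axis), with circles for replicate 1, triangles for replicate 2 and lines for the mean. Ifngr2 over Ifngr1 is at most 1.75 in DMSO and at least 4.46 in every library with LPS, and Ikbke over Tbk1 falls from at least 0.205 in DMSO + LPS to at most 0.153 at 32 µM.

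Per kilobase of exon, the order of levels in resting cells was Jak1 (31.0 CPM per kilobase), Ifngr2 (29.4), Tbk1 (24.3), Ifnar1 (19.9), Ifngr1 (17.1), Ifnar2 (13.7), Jak2 (10.7), Tyk2 (8.98), Ikbke (0.540) and Ifnb1 (0.116). Only Jak1 and Ifngr2 overlapped as neighbors in that order. In DMSO + LPS the order was Ifngr2 (45.1 CPM per kilobase), Jak1 (41.4), Tbk1 (34.6), Jak2 (21.9), Ifnar1 (20.3 and 21.7 in its libraries), Tyk2 (16.7), Ifnar2 (9.81), Ifngr1 (8.28), Ikbke (7.38) and Ifnb1 (1.52). There Jak2 and Ifnar1 overlapped. At 32 µM the 3 highest kept their places, and Ikbke was at 4.58 and Ifnb1 at 0.326 CPM per kilobase.

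Against resting cells, the 32 µM libraries had 5 of the 10 genes higher and 1 lower, where 27.1% of all genes were called, and 9 of 10 passed by adjusted p alone, against 50.9%. The log2 differences from resting cells were 0.69 ± 0.05 for Ifngr2, 0.87 ± 0.09 for Jak2, 0.67 ± 0.06 for Tyk2 and -0.78 ± 0.08 for Ifngr1 (adjusted p between 1.09e-05 and 9.47e-05 in edgeR). For Ifngr2 and Tyk2 the call was lost with scaling by library size alone (0.48 and 0.47), which moved the median of all genes by -0.20. Ifnar1, Jak1 and Tbk1 passed by adjusted p but not the 1.5-fold limit, and Ifnar1 did not pass in 5 of 20 alternatives (0.0084 with adjusted p = 0.925 in edgeR by library size alone).

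The genes around the 10 were read from 5 lists of pathway members, with the background shares given above. Of the sensors, adaptors and factors upstream of Ifnb1, 24 were tested. The shares called were 62.5% with LPS and 16.7% at 32 µM, against 28.2% and 4.18% of all genes. LPS raised 13 and lowered 2 of them, led by Irf7 (3.21 ± 0.07), which amplifies the interferon response, and by the RNA sensors Ddx58 (2.33 ± 0.06) and Ifih1 (2.22 ± 0.11). At 32 µM 4 of the 24 were lower and none higher. At 10 µM none was called, against 1 (Irf7) without replicate 1 at 10 µM. Those lower at 32 µM were Irf7 (-1.48 ± 0.06), Ifih1 (-1.48 ± 0.11), the double-stranded RNA receptor Tlr3 (-1.41 ± 0.10) and Ddx58 (-1.29 ± 0.06), each of which is itself known as an interferon-induced gene. Irf3, the substrate of TBK1 and IKKε, was at 36.5 CPM in DMSO + LPS and 38.2 CPM at 32 µM (log2 change 0.07 ± 0.10, adjusted p = 0.817, edgeR).

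Of a list of STAT genes with Irf9, 6 genes were tested, and LPS raised Stat2 and Irf9. These are 33.3% of the list, near the 28.2% of all genes. At 32 µM 1 of the 6 was called, where 4.18% of all genes were. At 32 µM Stat2 (from 199 to 72.6 CPM, log2 change -1.45 ± 0.05) was called lower. Irf9 (from 133 to 110 CPM, -0.28 ± 0.04) passed by adjusted p (0.00498, edgeR) but not the 1.5-fold limit. At 10 µM Stat2 alone was called (-0.65 ± 0.05).

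All 22 target genes of ISGF3 rose with LPS, by 1.14 to 5.59 on the log2 scale, with Rsad2 (5.59 ± 0.09), Isg15 (5.14 ± 0.17) and Ifit3 (5.11 ± 0.05) leading. At 32 µM 21 of the 22 were lower, with Zbp1 (-2.14 ± 0.07), Mx2 (-2.09 ± 0.05) and Ifit3 (-2.07 ± 0.05) leading, and the median change was -1.45. At 10 µM 8 were lower, against 6 without replicate 1 at 10 µM and 5 without both libraries with epithelial transcripts. At 3.2 µM none was called. The shares called were 100% with LPS, 95.5% at 32 µM and 36.4% at 10 µM, against 28.2%, 4.18% and 0.861% of all genes.

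Of 16 negative regulators of receptor and JAK signaling, LPS raised 5 and lowered none. That is 31.25% of the list, near the 28.2% of all genes. Socs3, an inhibitor of JAK kinases, rose by 6.74 ± 0.05 (log2), Usp18, which blocks IFNAR2, by 3.51 ± 0.07, and Socs1 by 2.84 ± 0.12. Cish had 0 counts in both DMSO libraries and 114 to 117 counts in DMSO + LPS, at least 39.3-fold higher in the lower of these libraries against a floor of 3 counts per library, and it passed the minimum count only through libraries with LPS. At 32 µM Socs2 (-1.92 ± 0.42), Usp18 (-1.40 ± 0.06) and Cish (-1.18 ± 0.23) were lower, 18.75% of the list against 4.18% of all genes. The calls of Socs2 and Cish were lost without any one of the 4 libraries compared, and that of Cish also without replicate 2 at 3.2 µM. A further 4 passed by adjusted p but not the 1.5-fold limit, of which Socs1 (-0.55 ± 0.11), Socs3 (-0.30 ± 0.04) and the phosphatase gene Ptpn11 (-0.18 ± 0.04) were lower and the phosphatase gene Ptpn1 (0.36 ± 0.04) was higher.

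Of 16 tested genes for JAK3 and for other cytokine receptors that work through JAKs, LPS raised 4 and lowered 3. That is 43.75% of the list, against 28.2% of all genes. Ghr had 2 and 3 counts in DMSO and 88 and 92 in DMSO + LPS, a ratio of 39.9 with a counting interval of 16.8 to 124 (exact binomial, 95%), and it passed the minimum count only through libraries with LPS. Il2rg, the shared gamma chain, was at 7.31 and 2.59 CPM in DMSO and 24.4 and 25.4 CPM in DMSO + LPS, a log2 change of 2.33 ± 0.66. It was 9.59-fold without replicate 1 of DMSO, and without replicate 2 of DMSO (3.37-fold) or either library of DMSO + LPS it was not called. Lifr had 11 to 23 counts in DMSO and 0 in DMSO + LPS, at least 3.22-fold lower from the lower of the DMSO libraries and 5.09-fold from their mean, against the same floor, and it passed the minimum count only through libraries where it was high. At 32 µM only Csf2rb2 of this list, a receptor chain of the interleukin-3 family, was called, from 63.8 to 100.1 CPM (0.65 ± 0.06). That is 6.25% of the list, near the 4.18% of all genes. Ghr changed by -0.93 without a call (adjusted p = 0.0741, edgeR). It was called lower in some alternatives, among them the short-transcript score in the fit (-0.94).

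**Figure D4:**
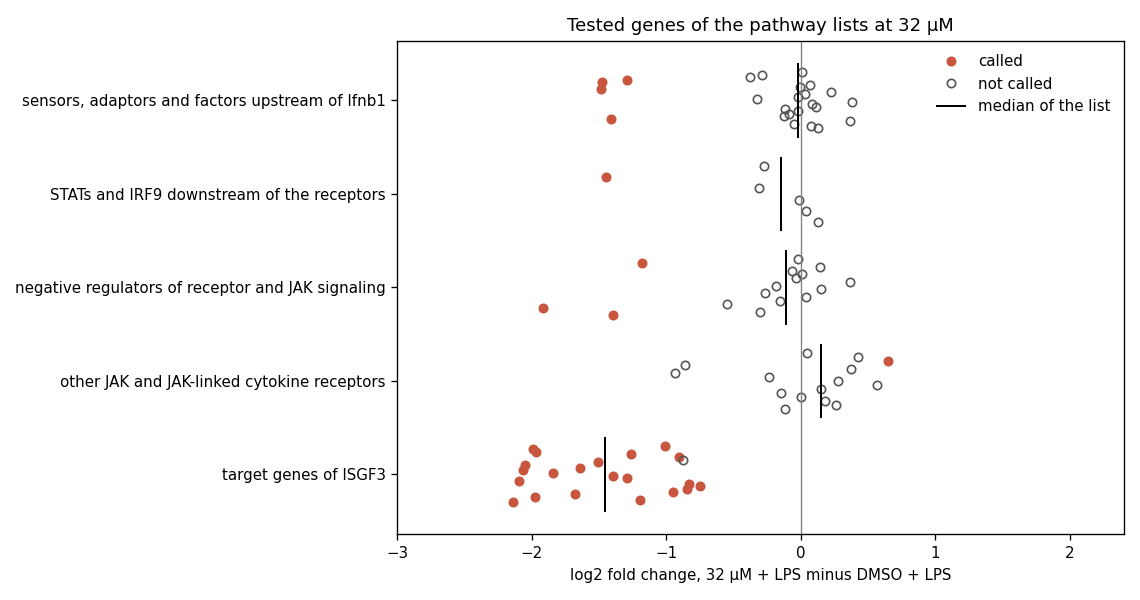
Log2 fold change at 32 µM + LPS against DMSO + LPS (x axis) of each tested gene of 5 pathway lists (y axis), with filled points for called genes, open points for others and a line at each list's median. Lifr, at 0 counts in DMSO + LPS, is left out. The targets of ISGF3 lie between -2.14 and -0.75, and most genes of the 4 upper lists lie near 0.

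The genes whose log2 CPM over the 10 libraries followed Ifnb1 most closely, among 11191 genes with a mean of at least 1 CPM, were Ogfr (Pearson's r = 0.996), Tor1aip1 (0.995), Sass6 (0.993), Parp12 (0.993) and Oas1b (0.993). For Ikbke they were Ripk2 (0.999), Car13 (0.999), Lif (0.999), Lcn2 (0.999) and Sema3e (0.998). These are descriptions over 10 libraries, of which pairs share a condition.

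Genes that overlap the 10 in the annotation were at low counts. Gm21970, which shares 315 nt of exon with Ifnar2 on the same strand (9.46% of its exons), had 0 counts. How reads in shared exons were counted is not given, so this does not show that none lay there. The antisense genes 1700084C06Rik at Tyk2 and Gm28914 and Gm28913 at Ikbke had at most 30 counts in a library, and Raver2, Gm24468 and Gm12785 at Jak1 at most 12. How the counting treated strand is not given in the sources used here.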

How the data were processed

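RNA-seq covered 10 libraries of RAW264.7 cells, 2 for each of 5 conditions. Libraries were made at a core facility from poly(A) RNA with a directional kit and sequenced together on 1 lane. The deposited values are raw counts per mouse Ensembl gene, 1 column a library, without normalization. The submitters' processing notes name Trimmomatic, FastQC, STAR, DESeq2 and the build mm10. The counting tool, its use of strand and the annotation are not given in the sources used here. Without strand, reads of overlapping antisense genes would be shared.

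Symbols (42462 identifiers matched) and positions came from GENCODE M21 on GRCm38, and promoters from RefSeq on GRCm38.p6, where all 10 genes matched. After filterByExpr (minimum count 10) and TMM scaling, edgeR 4.0.16 (R 4.3.3) fitted 1 mean per condition to all 10 libraries (5 residual degrees of freedom, common BCV 0.128). Its quasi-likelihood F test was run for LPS (DMSO + LPS against DMSO), for every dose of **1** against DMSO + LPS, and for 32 µM against 10 µM and against DMSO. A call needed a Benjamini-Hochberg adjusted p below 0.05 over 14172 genes and a 1.5-fold change. An exact permutation test of 2 against 2 libraries cannot go below p = 0.333, so none was used. Standard errors are the log2 change divided by the root of F. CPM per kilobase used the joined exon length.

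Alternatives were scaling by DESeq2's size factors or by library size, testing every gene with a count, the replicate number in the fit, edgeR's likelihood ratio test, DESeq2 1.42.0 on all libraries or on the 4 compared, edgeR on those 4, adjusted p alone, a 2-fold cutoff and leaving out each library. After the data were seen, each library's short-transcript score (the median relative level of genes under 1000 nt) and leaving out both libraries with epithelial transcripts were added. The steps were tested on simulated data. Genes named are the 10, Stat2, Irf9, Irf3, Irf7, Socs1, Socs3 and Usp18, up to 3 called genes with the largest change in each list for LPS and for 32 µM, the 5 most like Ifnb1 and Ikbke, and overlapping genes. Ddx58 at 32 µM, Socs2, Csf2rb2 and values named outside this rule are given as members of small counts. The 10 genes and the lists were chosen with earlier results of these data known. Some list members, and the results that need them, are not reported here. Intervals and counting errors cover what they state alone, and counting errors cover the sampling of reads only.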

Additional observations from a re-analysis of the deposited data

How the results depend on the processing

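With 2 libraries a condition, adjusted p-values move with the spread assumed, and where a condition loses 1 library the other is taken to vary like those of the other conditions. Of 1197 values of 60 changes (10 genes in 6 comparisons) under 20 alternatives, 1137 kept their direction and their side of the call, 25 lost a call, 3 gained one and 32 changed sign, all 32 among changes that were not called. DESeq2 gave no adjusted p for Ifnb1 at 3.2 µM in both of its fits and for Ifngr1 in 1.

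At 32 µM the 2-fold cutoff called 1 of the 10 genes (Ifnb1) in place of 2, and leaving out a library gave 1 to 2. Between 32 and 10 µM the call of Ifnb1 was lost, giving 0, without the count filter, with DESeq2 on 10 or 4 libraries, with edgeR on 4, without the 2 libraries with epithelial transcripts, and without any one library (0 to 0). The cause was not tested. Against DMSO the 2-fold cutoff called 2 of 10 at 32 µM in place of 6.

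Same-numbered libraries deviated together (correlation above 0.1) in 6 of 10 pairs of conditions, from 0.104 to 0.573, with 0.437 for 10 and 32 µM. The other 4 pairs were those with DMSO + LPS, from -0.169 to -0.0664. Pairing was taken to need all 10, so the numbers were not used as pairs. With the replicate block, 0 genes in place of 1 were called between 32 and 10 µM, where Ifnb1 had an adjusted p of 0.0510 in edgeR, and no other call of the 10 genes changed.

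Sign changes of uncalled log2 changes were as follows. Library size alone gave -0.13 for Ifnar1 with LPS. The short-transcript score gave 0.020 for Jak1 and 0.038 for Jak2 at 3.2 µM, and between 32 and 10 µM 0.022 for Ifnar2, -0.035 for Jak2 and -0.023 for Tbk1. Without both libraries with epithelial transcripts, Jak1 was 0.0060 at 10 µM, and between 32 and 10 µM Ifnar2 was 0.199, Ifngr2 0.015, Jak1 -0.015, Jak2 -0.083 and Tbk1 -0.063.

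With 1 library left out, Jak1 ran from -0.064 to 0.047 at 32 µM, from -0.105 to 0.018 at 10 µM and from -0.072 to 0.039 at 3.2 µM. Ifnar1 ran from -0.0079 to 0.110 at 10 µM, and at 3.2 µM Ifngr1 from -0.0011 to 0.082 and Jak2 from -0.064 to 0.013. Between 32 and 10 µM the ranges were -0.291 to 0.199 for Ifnar2, -0.030 to 0.214 for Ifngr1, -0.062 to 0.015 for Ifngr2, -0.016 to 0.080 for Jak1, -0.093 to 0.115 for Jak2, -0.117 to 0.042 for Tyk2 and -0.063 to 0.091 for Tbk1.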
